A study of Mus musculus with 30 samples.

Results

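The genes described here encode subunits of the 26S proteasome and one of its assembly chaperones (Psmd5): 14 genes of the 20S core (Psma1 to Psma7 of the alpha rings and Psmb1 to Psmb7 of the beta rings) and 18 genes of the 19S cap (6 ATPases, Psmc1 to Psmc6, and 12 non-ATPase genes of the Psmd series, among which Psmd5 is counted). They were chosen by symbol, and all 32 were present among the 11249 genes of the deposited expression table. Gene expression was measured by polyA RNA sequencing in whole muscle of male mice. Tissue was taken on day 3 after sham surgery or after transection of the spinal cord at a high (T3) or low (T9) thoracic level. The gastrocnemius, a calf muscle, was sampled in 4 mice per group, and the triceps brachii, a forelimb muscle, in 6 mice per group. For 12 of these mice both muscles were sequenced, as their descriptions show. The series' title names muscle wasting that depends on the level of the lesion, which is the question behind the comparison of T3 with T9. The labels give neither strain nor age.

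The proteasome is the main machine for breaking down proteins tagged with ubiquitin. The 20S core is a barrel of stacked rings: the outer alpha rings form the gate, and the inner beta rings carry the proteolytic sites, on Psmb5, Psmb6 and Psmb7. The 19S cap binds the ubiquitin chain, removes it, and unfolds and feeds the substrate into the barrel with its ring of ATPases. Genes of core and cap are known to be induced together in muscle that is losing mass, and the transcription factor NRF1 (gene Nfe2l1) raises them together through antioxidant response elements.

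The core of that element, read as TGACNNNGC on either strand, was looked for in the RefSeq promoter windows (GRCm38.p6, 250 bases before to 50 after the start), which 26 of the 32 genes had. It stood in 4 of the 26 (15.4%), against 17.2% of 8375 genes of the table with a window. These 4 stretches are shown because they come from the 4 of 26 genes whose window held the core. Genes without a window were not searched. The core is in capitals, and each stretch is written 5′ to 3′ on the strand of its gene:
Psmb6 (chr11:70525323-70525356, plus strand): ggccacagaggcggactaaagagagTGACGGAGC
Psmb5 (chr14:54618008-54618067, minus strand): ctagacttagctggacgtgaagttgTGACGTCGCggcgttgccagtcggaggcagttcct
Psmc6 (chr14:45329574-45329631, plus strand): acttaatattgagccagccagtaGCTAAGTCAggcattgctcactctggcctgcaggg
Psmd12 (chr11:107479278-107479315, plus strand): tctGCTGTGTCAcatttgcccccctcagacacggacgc
In Psmc6 and Psmd12 the core lies on the opposite strand and so reads as its reverse complement. The core begins 9 bases before the start of Psmb6, 47 before that of Psmb5, 227 before that of Psmc6 and 247 before that of Psmd12. The CCAAT box (CCAAT on either strand) was in 10 of 26 windows (38.5%), against 43.1% of the table's genes, and the FoxO core GTAAACA was in 0 of 26, against 3.07%. In the gastrocnemius after T3, the comparison described next, these 4 genes had log2 changes of 0.45 (Psmb6), 0.97 (Psmb5), 0.61 (Psmc6) and 0.81 (Psmd12), against a median of 1.07 over the 32 genes.

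Each library held 13.3 to 23.4 M reads over the genes of the table, where M stands for 1e+06, apart from 88.8 M in triceps T3 replicate 5, and no subunit had under 178 reads in any library. Levels are given as CPM, counts per 1e+06 of those reads. All 10 skeletal muscle markers were present, at a summed 101330 to 175610 CPM. Tbx4, a hind limb marker, was in the table, and Pitx1 and the fore limb marker Tbx5 were not. Triceps sham replicate 4 stood apart in its macrophage markers (9 of 10 in the table, without Adgre1), whose sum was 1008 CPM, against 21.1 to 78.0 CPM in the other libraries, and in its fibroblast markers (6 of 6), at 1130 CPM. The median log2 CPM over all genes was lower in sham than in injured muscle (means in the gastrocnemius of 3.90, 4.17 and 4.30 for sham, T3 and T9; in the triceps of 3.74, 3.97 and 3.91), so the main counts against sham are also given after centring every library on its median. In whole muscle, fewer cells of a type and less RNA per cell cannot be told apart.

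In the gastrocnemius after T3 injury, transcripts of nearly the whole proteasome were higher than after sham surgery. Of the 32 genes, 29 rose (adjusted p under 0.05, limma) and 0 fell, against 27.1% of all genes that rose and 6.65% that fell. The subunits' median change was 1.07 on the log2 scale, against 0.27 for all genes. Together they took 0.949% ± 0.131 of the reads after T3 and 0.438% ± 0.051 after sham surgery (SD, n = 4). After centring, 21 rose, against 14.6% of all genes. Adipocyte markers (4 of 4 in the table) had a lower median after T3, with groups that overlapped: they summed to 206 to 428 CPM after sham surgery (median 327), 140.0 to 223 CPM after T3 (median 166) and 199 to 254 CPM after T9 (median 207). Their part in the result was not tested.

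**Figure D1:**
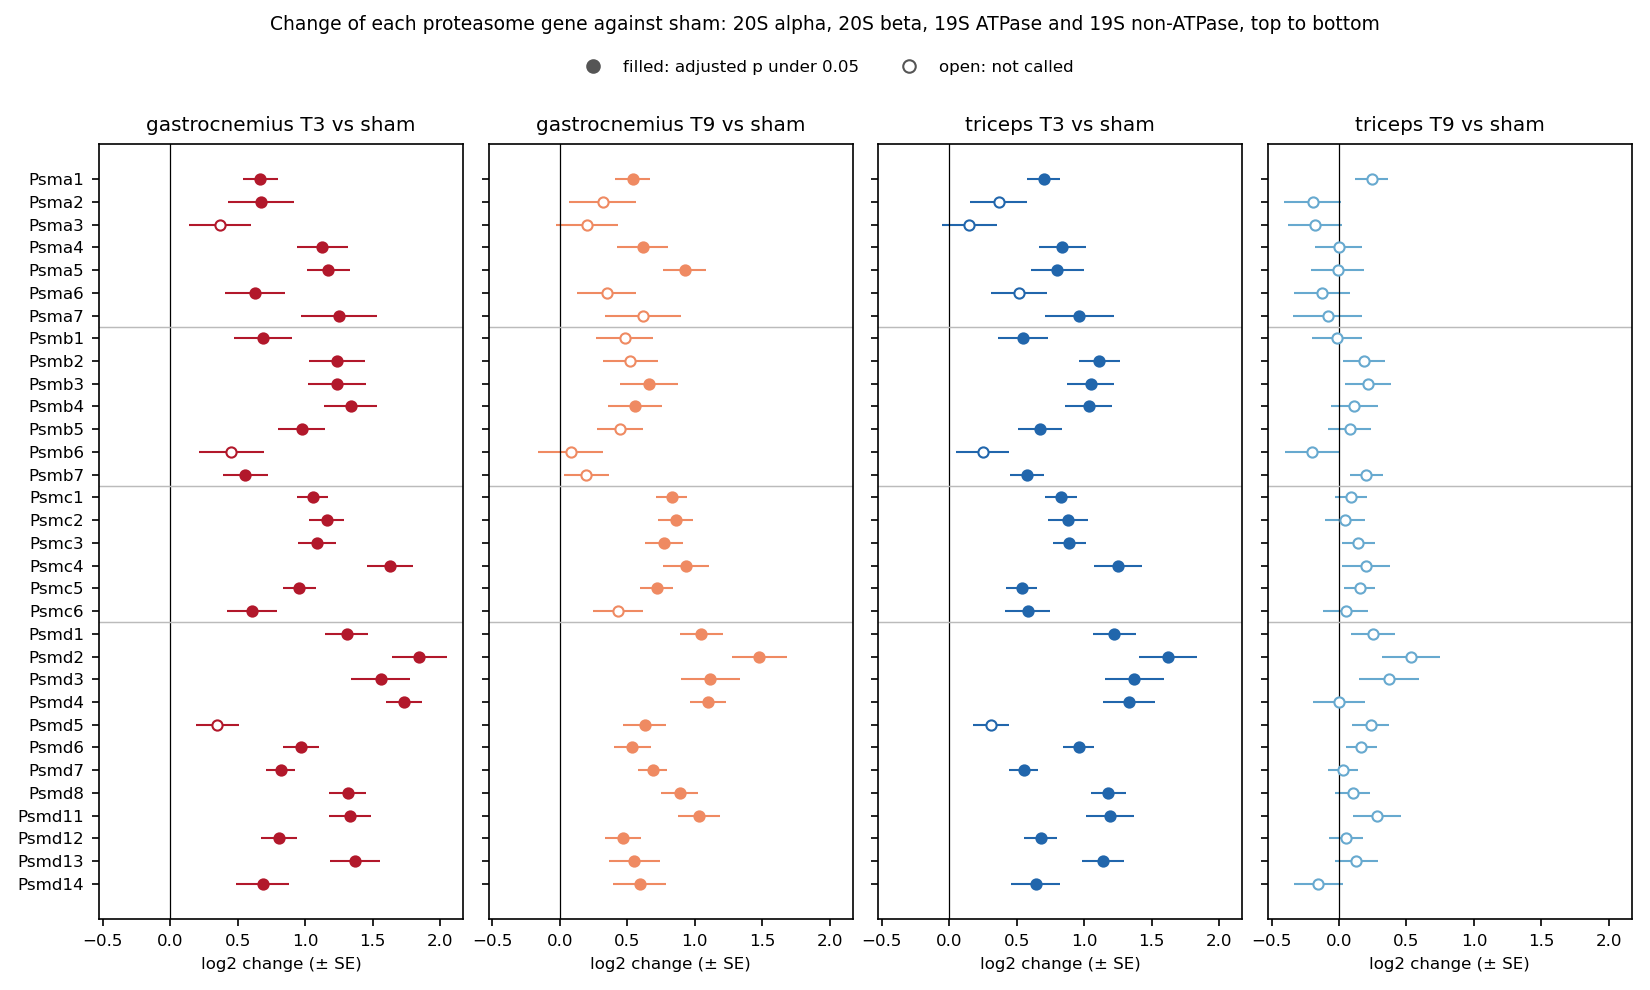
Change against sham of each of the 32 subunit genes in 4 comparisons. Points are log2 changes with their SE, filled where the adjusted p is under 0.05, and grey lines part the alpha ring, the beta ring, the ATPases and the non-ATPase subunits. Filled points number 29, 22, 27 and 0 from left to right.

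Of the alpha ring, 6 of 7 genes rose, with a median change of 0.67. Psma7 (ENSMUSG00000027566, chr2:180036374-180042433, minus strand, GRCm38), a subunit of the ring, had 179.7, 98.8, 103 and 301 CPM in sham replicates 1 to 4 and 367, 447, 325 and 332 CPM after T3. Every T3 library was above every sham library, though replicate 4 of the sham group came close (log2 change 1.25, SE 0.28, adjusted p = 0.0049). Psma4 and Psma5 rose by similar amounts (1.13, SE 0.19, and 1.17, SE 0.16). Psma3 (ENSMUSG00000060073, chr12:70974621-70996347, plus strand), another gate subunit, did not pass. Its levels were 190.1, 105, 123 and 251 CPM after sham surgery and 189.9, 245, 201 and 182 CPM after T3, so the groups overlapped (0.37, SE 0.23, adjusted p = 0.22).

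Of the beta ring, 6 of 7 genes also rose, with a median of 0.97. The structural subunit Psmb4 (ENSMUSG00000005779, chr3:94884093-94886961, minus strand) had 231, 154, 158 and 264 CPM in the sham libraries and 532, 656, 429.7 and 404 CPM after T3. All 4 T3 values were above all sham values, and the change was the largest of the 20S core (1.34, SE 0.20, adjusted p = 0.00032). Psmb2 (ENSMUSG00000028837, chr4:126677630-126709714, plus strand), also without a proteolytic site, was tight in the sham libraries at 51.9, 43.0, 47.2 and 52.6 CPM. After T3 it reached 134 and 177 CPM in replicates 1 and 2 and 84.4 and 85.3 CPM in replicates 3 and 4 (1.23, SE 0.21, adjusted p = 0.00069).

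The 3 genes that carry the proteolytic sites differed in how far they moved. Psmb5 (ENSMUSG00000022193, chr14:54614119-54618022, minus strand), of the chymotrypsin-like site, had 128, 94.1, 94.1 and 151 CPM after sham surgery and 217, 276, 207 and 207 CPM after T3, without overlap (0.97, SE 0.17, adjusted p = 0.0011). Psmb7 (ENSMUSG00000026750, chr2:38588036-38644087, minus strand), of the trypsin-like site, had 215, 135, 138 and 206 CPM and then 231, 271, 263 and 237 CPM. That is a smaller change that still passed (0.56, SE 0.16, adjusted p = 0.020). Psmb6 (ENSMUSG00000018286, chr11:70525367-70527858, plus strand), of the caspase-like site, had 219, 133, 144 and 314 CPM and then 271, 346, 232 and 212 CPM. The highest sham library stood above 3 of the 4 T3 libraries, and Psmb6 did not pass (0.45, SE 0.24, adjusted p = 0.16). Differences between these 3 genes were not tested.

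The 19S cap had the largest changes of the complex. All 6 ATPases of the cap rose, from 0.61 for Psmc6 to 1.63 for Psmc4 (median 1.07). Psmc4 (ENSMUSG00000030603, chr7:28041707-28050101, minus strand) lay between 78.6 and 96.3 CPM in the 4 sham libraries, at 93.0, 96.3, 94.9 and 78.6 CPM. After T3 it had 322, 364, 233 and 223 CPM, with no overlap (SE 0.17, adjusted p = 2.8e-05).

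Of the 12 non-ATPase genes, 11 rose, with a median of 1.31. Psmd2 (ENSMUSG00000006998, chr16:20651652-20663414, plus strand), the scaffold of the cap's base on which ubiquitin shuttles dock, had 281, 444, 418 and 213 CPM after sham surgery and 1136, 1249, 1182 and 1110.2 CPM after T3. Its log2 change of 1.85 (SE 0.20, 3.60-fold, adjusted p = 3.6e-05) was the largest of the 32 genes. Psmd4 (ENSMUSG00000005625, chr3:95032694-95042614, minus strand), a receptor for ubiquitin chains, had 195, 179.8, 188 and 166 CPM and then 651, 722, 536 and 532 CPM (1.73, SE 0.14, adjusted p = 4.8e-06). Psmd14, the deubiquitinase that removes the chain, rose less (0.69, SE 0.19, adjusted p = 0.016), and its groups overlapped. Psmd5 (ENSMUSG00000026869, chr2:34849734-34874968, minus strand) is an assembly chaperone of the cap rather than a part of the finished complex. It had 14.9, 12.6, 15.1 and 13.7 CPM and then 14.1, 16.6, 21.6 and 20.1 CPM, which did not pass (0.35, SE 0.16, adjusted p = 0.10).

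In all, 25 of the 32 genes had every T3 library above every sham library in this muscle (9 of the core and 16 of the cap), against 23.9% of all genes. The exons of Psmb7, Psmc3 and Psmd13 overlap those of Nek6, Slc39a13 and Sirt3 on the opposite strand. No label states the strand setting of the authors' counting, so reads of these pairs may be mixed.

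**Figure D2:**
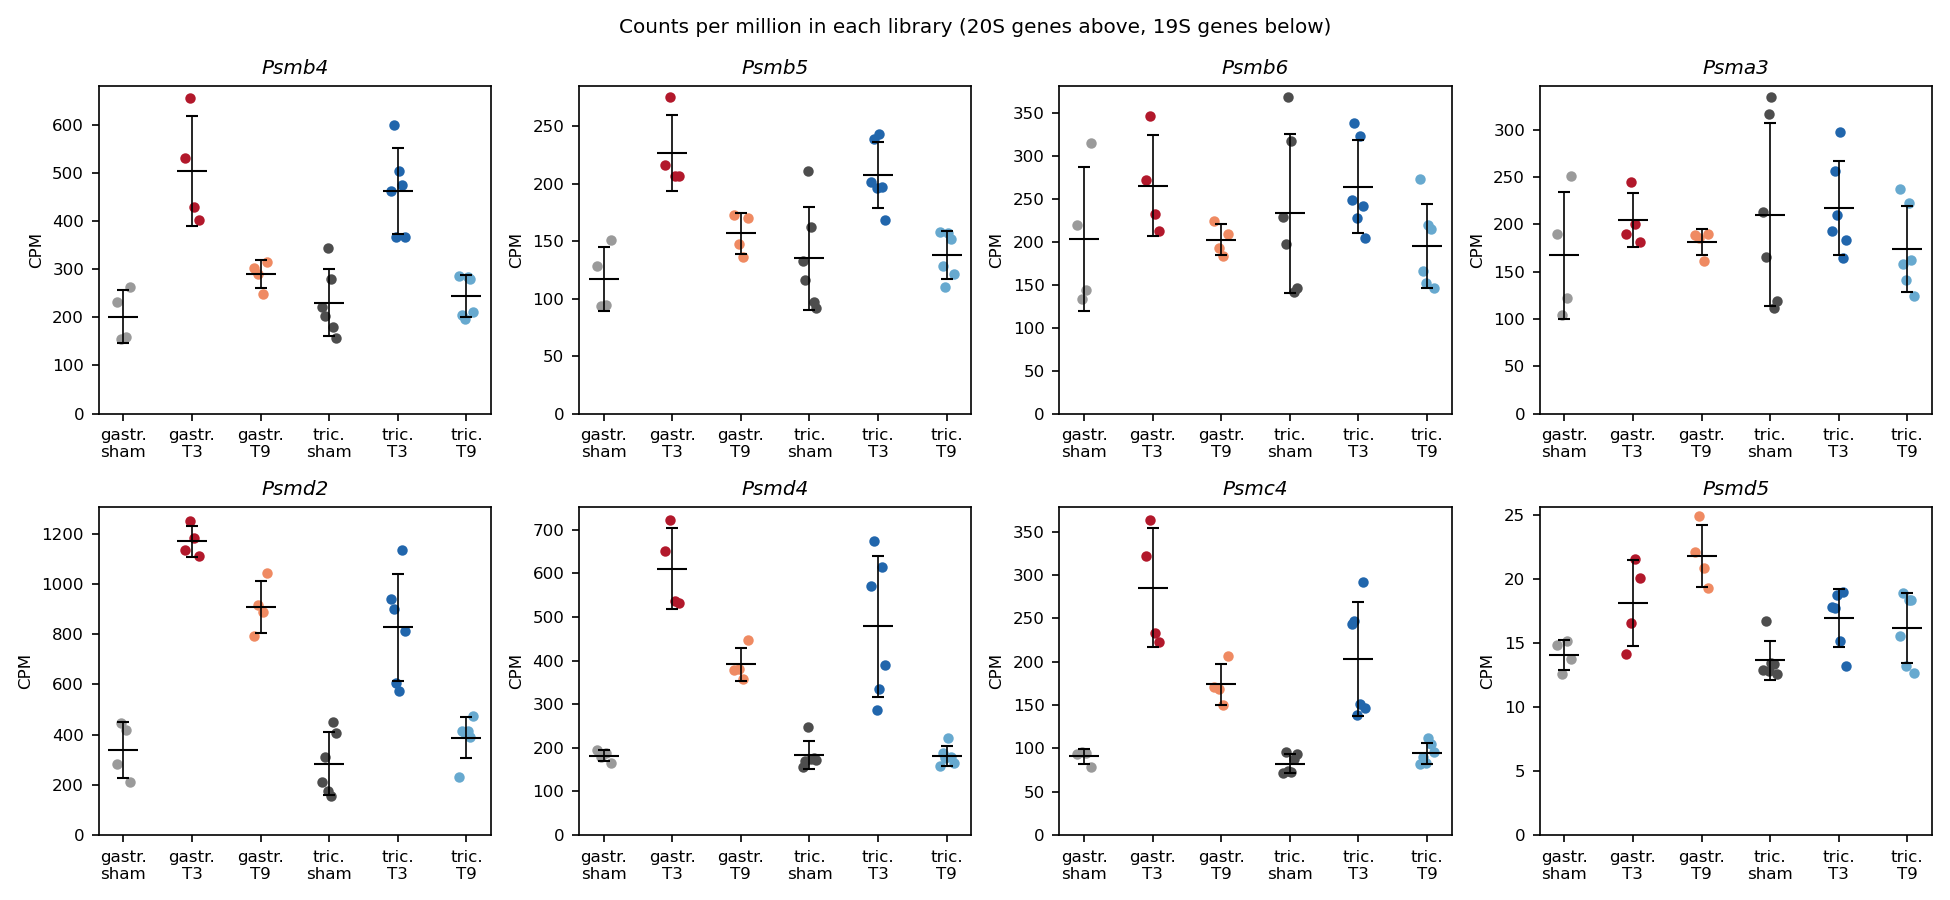
CPM in each of the 30 libraries for 4 genes of the 20S core (above) and 4 of the 19S cap (below). Points are libraries, and black bars are group means with SD (n = 4 in gastrocnemius and 6 in triceps). Psmd2, Psmd4 and Psmc4 are high in both gastrocnemius injury groups and in triceps T3, while triceps T9 stays at 157 to 223 CPM for Psmd4 beside 156 to 248 CPM in triceps sham.

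After T9 injury the gastrocnemius also had more proteasome transcript than after sham surgery. Of the 32 genes, 22 rose and 0 fell: 17 of the 18 cap genes and 5 of the 14 core genes (Psma1, Psma4, Psma5, Psmb3 and Psmb4). Of all genes, 37.6% rose and 5.67% fell, so the core's 5 of 14 was near the share of all genes and the cap's 17 of 18 above it. The median change was 0.80 for the cap, 0.50 for the core and 0.40 for all genes. With the library median as a covariate the order turned, to 0.81 for the cap and 1.31 for the core. The medians themselves did not overlap between sham (3.66 to 4.06) and T9 libraries (4.27 to 4.33). That setting therefore cannot part the covariate from the surgery and extrapolates. The 32 genes took 0.714% ± 0.051 of the reads (SD, n = 4). After centring, 6 rose, all of the cap, against 11.1% of all genes.

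Psmd2 again had the largest change, with 792, 914, 887 and 1042 CPM after T9 (1.48, SE 0.20, adjusted p = 0.00022), each value above all sham libraries. Psmd4 had 378, 381, 358 and 447 CPM (1.10, SE 0.14, adjusted p = 0.00011), and Psmc4 had 171, 168, 149.6 and 207 CPM (0.94, SE 0.17, adjusted p = 0.0013). Both were likewise clear of their sham values. Psmd5, which did not pass after T3, rose after T9, with 22.1, 24.9, 20.8 and 19.3 CPM (0.63, SE 0.16, adjusted p = 0.0081). Its difference between lesion levels did not pass (T3 minus T9 -0.28, SE 0.16, adjusted p = 0.45).

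The proteolytic subunits did not pass after T9. Psmb5 had 173, 148, 136 and 170.4 CPM (0.45, SE 0.17, adjusted p = 0.051). Psmb6 had 224, 192, 184 and 209 CPM (0.08, SE 0.24) and Psmb7 had 201, 199.9, 170.5 and 209 CPM (0.20, SE 0.16). All 3 overlapped their sham values. In all, 21 genes, 5 of the core and 16 of the cap, had every T9 library above every sham library, against 34.8% of all genes. The core's 5 of 14 was near that share.

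Between the lesion levels, the gastrocnemius values leaned towards T3 but few differences passed. Of the 32 genes, 31 had the higher mean after T3, with a median difference of 0.35 against -0.11 for all genes, and 2 were called higher, both of the cap, against 0.729% of all genes. Psmd4 was higher by 0.63 (SE 0.14, adjusted p = 0.035) and Psmd13, a subunit of the cap's lid, by 0.82 (SE 0.19, adjusted p = 0.046). Psmb4 differed by 0.78 (SE 0.20, adjusted p = 0.070) and Psmc4 by 0.69 (SE 0.17, adjusted p = 0.062). In 18 genes every T3 library was above every T9 library, against 5.88% of all genes. The number called hangs on the spread used: it was 13 when only these 8 libraries were fitted, and 0 with the replicate number as a block or without any one of 6 of the 8 libraries (T3 replicates 1 and 2 and each T9 replicate).

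The triceps is supplied from the neck part of the spinal cord, above both lesions. After T3 injury most proteasome genes were higher in it than after sham surgery, and after T9 injury no gene of the complex passed. After T3, 27 of the 32 genes rose and 0 fell, 10 of the core and 17 of the cap, against 19% of all genes that rose and 4.32% that fell. Their median change was 0.83, against 0.23 for all genes, and their share of reads was 0.826% ± 0.124 against 0.456% ± 0.080 after sham surgery (SD, n = 6). After centring, 15 rose (3 of the core and 12 of the cap), against 10.1% of all genes. In 18 genes (4 of the core and 14 of the cap) every T3 library was above every sham library, against 5.62% of all genes.

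All 6 ATPases rose in the triceps, and so did 11 of 12 non-ATPase genes, the exception being Psmd5 (0.31, SE 0.14, adjusted p = 0.11). Psmd2 ranged from 154 to 448 CPM in the 6 sham libraries, with a median of 261, and from 573 to 1136 CPM after T3, with a median of 858 (1.62, SE 0.22, adjusted p = 7.6e-05). Psmd4 ranged from 156 to 248 CPM (median 173) and then from 288 to 673 CPM (median 479.8; 1.33, SE 0.19, adjusted p = 0.00015). Psmc4 ranged from 72.2 to 95.9 CPM (median 80.4) and then from 139 to 293 CPM (median 197; 1.25, SE 0.18, adjusted p = 0.00011). None of these 3 overlapped between the groups.

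In the core, Psmb2 had the largest change in the triceps, from a sham range of 47.5 to 58.9 CPM (median 52.4) to 81.0 to 150.0 CPM (median 108) after T3 (1.11, SE 0.15, adjusted p = 0.00010). Psmb4 went from 157 to 345 CPM (median 212) to 366 to 600.3 CPM (median 469.7; 1.03, SE 0.18, adjusted p = 0.00054), also without overlap. Psma7 rose too (0.96, SE 0.26, adjusted p = 0.012), but its sham libraries ran from 98.4 to 415 CPM and overlapped the T3 range of 286 to 572 CPM. Psmb5 and Psmb7 rose (0.67, SE 0.16, adjusted p = 0.0064, and 0.58, SE 0.13, adjusted p = 0.0035). Psmb6, at 141 to 368 CPM after sham surgery and 204 to 338 CPM after T3, did not pass (0.25, SE 0.20, adjusted p = 0.37). Psma2, Psma3 and Psma6 were the other 3 core genes that did not pass.

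A number, 57 or 60, opens each library's description, with no meaning given, and 4 of 6 triceps libraries per group carry 60. The median change of the subunits after T3 was 0.64 among the 60 libraries, with 31 of 32 positive, and 1.07 among the 57 libraries, with 32 of 32 positive (4 against 4 and 2 against 2 libraries). All genes had medians of 0.32 and 0.10 in the same sets. After T9 the subunits' median change was 0.02 among the 60 libraries, with 18 of 32 positive, and 0.26 among the 57 libraries, with 30 of 32 positive. All genes had medians of 0.27 and 0.02 there, so the subunits lay below all genes in the first set and above them in the second. The core's median was -0.22 and 0.43.

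After T9 injury 0 of the 32 genes were called in either direction in the triceps by limma, against 0.00889% of all genes called higher, which is 1 gene. At an unadjusted p under 0.05, 1 subunit was higher (Psmd2) and 0 lower, and voom on the recovered reads also called 0. Changes ran from -0.20 (Psmb6) to 0.53 (Psmd2, SE 0.22, adjusted p = 0.42), with a median of 0.10 against 0.17 for all genes. Psmd4 ranged from 157 to 223 CPM (median 178) after T9, and Psmc4 from 81.8 to 112 CPM (median 93.0). Both ranges overlapped those of the sham libraries. The subunits took 0.473% ± 0.057 of the reads (SD, n = 6).

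Set directly against T9, T3 injury gave higher proteasome transcript in the triceps: 24 of 32 genes were called higher and 0 lower (8 of the core and 16 of the cap), against 4.95% of all genes. The median difference was 0.79, against 0.05 for all genes. Centring left 16 called, against 4.85% of all genes. In 20 genes (5 of the core and 15 of the cap) every T3 library was above every T9 library, against 3.30% of all genes. Psmd4 differed most (1.33, SE 0.19, adjusted p = 0.00052), followed by Psmd2 (1.09, SE 0.22, adjusted p = 0.0045) and Psmd8, a lid subunit (1.08, SE 0.13, adjusted p = 0.00017). In the core, Psma7 (1.05, SE 0.26, adjusted p = 0.016), Psmb2 (0.93, SE 0.15, adjusted p = 0.0013) and Psmb4 (0.92, SE 0.18, adjusted p = 0.0036) differed most. Those not called were Psma2, Psma3, Psma6, Psmb1, Psmb6, Psmb7, Psmc6 and Psmd5. Both contrasts with T3 in a muscle use the same T3 libraries.

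Whether an injury acted differently on both muscles was tested on the difference between gastrocnemius and triceps within each of the 12 mice. For T3, 0 of the 32 genes were called in either direction by limma, against 0.142% of all genes called higher, and 6 were higher and 0 lower at an unadjusted p under 0.05. The extra change in the gastrocnemius had a median of 0.31. For T9, 12 genes were called, each with a larger change in the gastrocnemius, against 3.76% of all genes. They were Psma4 and Psma5 of the core, 5 ATPases (Psmc1 to Psmc5) and the non-ATPase subunits Psmd1, Psmd4, Psmd7, Psmd8 and Psmd14. Psma5 had the largest extra change (1.18, SE 0.19, adjusted p = 0.0034), followed by Psmd4 (1.09, SE 0.21, adjusted p = 0.0079). Psma5 had 60.62, 44.8, 52.8 and 74.1 CPM in gastrocnemius sham and 110.2, 113, 97.7 and 114 CPM after T9. In the triceps it ranged from 40.5 to 116 CPM (median 63.1) after sham surgery and from 47.9 to 84.4 CPM (median 62.7) after T9. These triceps ranges cover all libraries, also those of mice outside the within-mouse test. Among the triceps libraries of the tested mice, those with the number 60, the core's median change after T9 was -0.22. The extra change thus also holds a lower triceps value. After centring, 4 genes were called, against 3.24% of all genes. The count was 6 without T9 gastrocnemius replicate 2 or 3, and 7 without T9 replicate 4 or sham replicate 2, each left out with its mouse.

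In sham mice the gastrocnemius had less of 8 subunits than the triceps, 7 of them in the core, and more of 3 (Psmd1, Psmd2 and Psmd3), against 12.0% of all genes lower and 26.8% higher. These calls rest on 1 mouse, that of sham replicate 3 in both muscles: without it 0 subunits were called. They also depend on length and GC content: after removal of each library's trend on these, 10 subunits were called higher and 2 lower in the gastrocnemius. The triceps library of the sham replicate 3 mouse had the lowest median of all 30. Libraries of that mouse in both muscles deviated from their group means in opposite directions (r = -0.753 over genes), whereas those of the other 11 mice deviated together (r from 0.124 to 0.728).

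**Figure D3:**
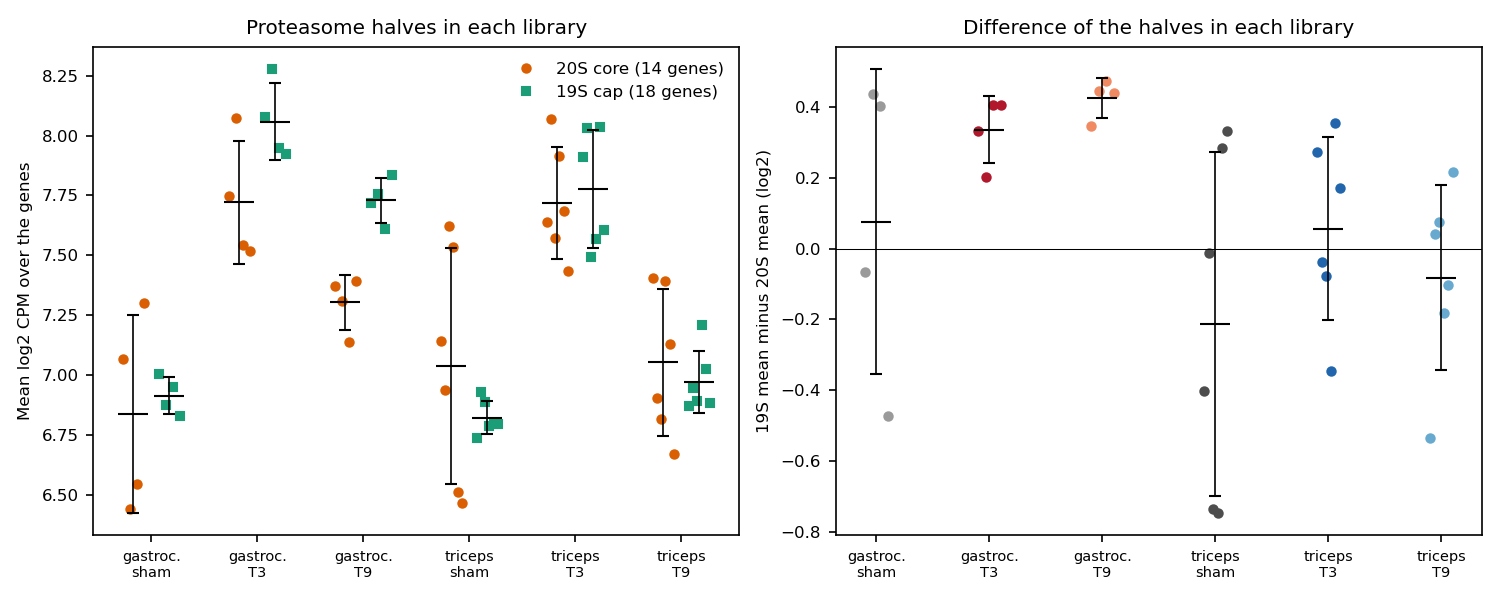
Left, mean log2 CPM of the 14 core genes and of the 18 cap genes in each library. Right, cap mean minus core mean in each library. Black bars are group means with SD (n = 4 in gastrocnemius and 6 in triceps). The mean over the core genes spreads widely in both sham groups (SD 0.41 and 0.49). The mean over the cap genes does not (SD 0.08 and 0.07), though single cap genes such as Psmd2 do.

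The mean over the core genes varied more than that over the cap genes among libraries of a group in 5 of the 6 groups. The exception was triceps T3 (SD 0.23 for the core and 0.25 for the cap, n = 6). Over the 4 gastrocnemius sham libraries the mean log2 CPM of the cap genes was 7.003, 6.88, 6.95 and 6.83, while that of the core genes was 7.07, 6.44, 6.54 and 7.30. In triceps sham the cap ran from 6.74 to 6.93 and the core from 6.47 to 7.62. The SD of the core mean was thus 0.41 (n = 4) and 0.49 (n = 6), and that of the cap mean 0.08 and 0.07. Single genes did not all follow this. Per kilobase of exon in triceps sham, the cap's Psmd2 had 70.5 ± 30.7 CPM per kb and the core's Psmb2 43.5 ± 3.44 (SD, n = 6). In both sham groups the core was high in the libraries whose median over all genes was low. Gastrocnemius sham medians were 3.86, 4.02, 4.06 and 3.66 in the same order, and the 2 triceps sham libraries with core means of 7.62 and 7.53 had medians of 3.29 and 3.55. Triceps T9 was similar, with an SD of 0.31 for the core and 0.13 for the cap (n = 6), and its library of lowest median, 3.67, had the highest core mean, 7.41. Gastrocnemius T9 was not, as its core mean and library median had a Pearson r of 0.45 (n = 4). Over all 12 gastrocnemius libraries that r was 0.23. In gastrocnemius T3 it was -0.64 for the core and -0.66 for the cap (n = 4). Within the cap the large subunit Psmd2 went the other way from the core's Psma7, at 281, 444, 418 and 213 CPM beside 179.7, 98.8, 103 and 301 CPM.

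**Figure D4:**
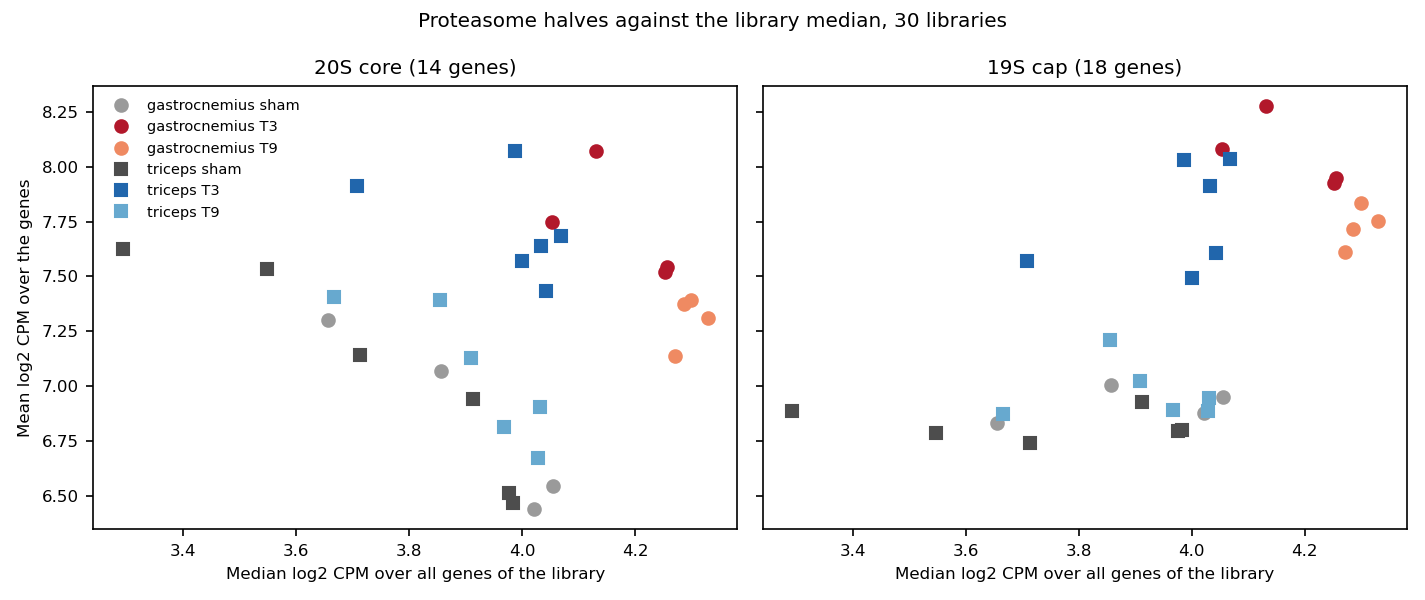
Mean log2 CPM of the 14 core genes (left) and of the 18 cap genes (right) against the median log2 CPM over all genes, 1 point for each of the 30 libraries. In triceps sham the core mean falls from 7.62 to 6.47 across libraries with medians from 3.29 to 3.98, while the cap mean stays between 6.74 and 6.93.

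Core genes are shorter than cap genes (median exon length 2335 against 2939 bases) and both are shorter than the median gene of the table (4383 bases). Whether this, or the state of the RNA, has a part in the spread of the core was not tested. Cap minus core was 0.34 ± 0.10 after T3 and 0.43 ± 0.06 after T9 in the gastrocnemius, against 0.08 ± 0.43 after sham surgery (SD, n = 4). In the triceps it was 0.06 ± 0.26, -0.08 ± 0.26 and -0.21 ± 0.49 after T3, T9 and sham surgery (SD, n = 6). These shifts are smaller than or near the spread of the sham libraries. The cap's larger median change also depends on how the library median is handled. In the gastrocnemius after T3, core and cap had median changes of 0.83 and 1.12 as deposited, 1.09 and 1.23 after removal of each library's trend on length and GC content, and 1.44 and 1.16 with the library median as a covariate, which turns the order. With these last 2 settings 31 of the 32 genes were called. Library medians of sham (3.66 to 4.06) and T3 (4.05 to 4.26) hardly overlapped, so the covariate can hardly be parted from the surgery.

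Per kilobase of exon, core and cap genes in the gastrocnemius had medians over genes of 44.2 and 42.6 CPM per kb after sham surgery, 98.8 and 91.8 after T3, and 66.3 and 67.8 after T9. In the triceps the core median was above that of the cap in each group, at 53.3 and 40.8 CPM per kb after sham surgery, 95.3 and 83.8 after T3, and 54.8 and 44.4 after T9. In the gastrocnemius after sham surgery Psmb5 was highest at 130 CPM per kb and Psmd5 lowest at 1.95. After T3 the order of the leading genes was Psmd2 at 289.6 ± 15.1, Psmb4 at 259 ± 58.8, Psmb5 at 252 ± 36.9 and Psmd4 at 217 ± 33.1 CPM per kb (SD, n = 4). The first 3 did not differ beyond their spread. Psmd2 had been seventh before, at 84.0 ± 27.3. Psmd5 stayed lowest at 2.50 ± 0.46. The union of annotated exons was used as length, so a gene with many unused exons is understated.

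Most of the subunits varied together across libraries. Over the 12 gastrocnemius libraries, the 496 pairs of genes had a median Pearson r of 0.86 on the deposited values, and over the 18 triceps libraries 0.78. The lowest were 0.00083 and -0.39. This is a description that the shared libraries, groups and depths enter. On values centred on the library median, Psma4 followed the mean of the other subunits most closely in the gastrocnemius (r = 0.99) and Psmd5 least (r = 0.14). In the triceps, Psmd3 and Psmd2 followed it least (r = 0.31 and 0.36). Psmd2 had an r of 0.62 in the gastrocnemius. Outside the proteasome lists, genes whose centred values followed the subunits' mean closely over the 12 gastrocnemius libraries included Cyp2c23 (r = 0.99), Map1lc3b, which encodes a protein of the autophagosome membrane (0.98), Dctn2, Josd2, Stk25, Trmt1, Eif1, AC114990.1 and Mkrn1 (0.96). In the triceps, Map1lc3b and Dctn2 had r of 0.92 and 0.94 over 18 libraries and Cyp2c23 0.73.

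The other genes of the pathway numbered 45 in the table. In the gastrocnemius after T3, 25 of them rose and 1 fell, with a median change of 0.64, against the 27.1% and 6.65% of all genes given above. In the triceps after T3, 16 rose and 1 fell, against 19% and 4.32% of all genes. After T9, 24 rose and 2 fell in the gastrocnemius, against 37.6% and 5.67%, and 0 were called in the triceps. After centring, 16 rose in the gastrocnemius after T3, 10 in the triceps after T3 and 9 in the gastrocnemius after T9, against 14.6%, 10.1% and 11.1% of all genes.

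Of the factors that bind the proteasome or deliver substrates to it, 13 of 16 rose in the gastrocnemius after T3 and 8 of 16 in the triceps. Of all genes, 27.1% and 19% did. After centring, 9 and 5 of the 16 rose, against 14.6% and 10.1% of all genes. In the gastrocnemius after T9, 13 of the 16 rose, against 37.6% of all genes, and 5 after centring, against 11.1%. Nploc4, a cofactor of the segregase VCP, had changes of 2.16 (adjusted p = 1.6e-05) and 1.74 (adjusted p = 0.00076) in these muscles, larger than most subunits. Its partner Ufd1 (1.08 and 0.66), the cap-bound deubiquitinase Usp14 (1.25 and 0.86) and the cap-bound thioredoxin-like Txnl1 (1.15 and 0.94) also rose in both.

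Of 9 further cap subunits and assembly chaperones, 2 rose in both muscles after T3, near the 27.1% and 19% of all genes that rose. After centring, 1 of the 9 rose in each muscle. The 2 were Adrm1, a ubiquitin receptor of the cap (1.36, adjusted p = 7.6e-05, and 1.15, adjusted p = 0.00034), and Pomp, which matures the core (0.71, adjusted p = 0.010, and 0.58, adjusted p = 0.013). The core's pairing chaperones Psmg1 to Psmg4 and the base chaperones Psmd9 and Psmd10 did not pass, with changes from -0.13 to 0.25 in the gastrocnemius. Of the inducible core subunits that form the immunoproteasome, 0 of 3 rose. Psmb10 fell in the gastrocnemius (-0.91, adjusted p = 0.011, after T3 and -1.03, adjusted p = 0.0053, after T9), while Psmb8 and Psmb9 had changes of 0.03 and 0.18 after T3. Macrophage markers summed to 45.4 to 54.2 CPM after T3 and 21.5 to 65.8 CPM after sham surgery in this muscle. Whether immune cells had a part in these values was not tested.

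Of the alternative activators and the inhibitor, Psmf1, which binds the core, rose in both muscles after T3 (1.06, adjusted p = 0.0014, and 0.80, adjusted p = 0.014), as did the activator gene Psme3 (0.43, adjusted p = 0.016, and 0.39, adjusted p = 0.020). Psme1, of the interferon-induced activator, fell in the triceps (-0.62, adjusted p = 0.0014) and had a change of -0.40 (adjusted p = 0.12) in the gastrocnemius. Of the 6 genes of ubiquitin and its activating enzymes, 2 rose in the gastrocnemius after T3 and 1 in the triceps, and 0 fell. Of all genes, 27.1% and 19% rose. After centring, 2 of the 6 rose and 1 fell in the gastrocnemius, against 14.6% and 14.5% of all genes. In the triceps 1 rose and 1 fell after centring, against 10.1% and 7.95%. As deposited, the changes of the 6 ran from -0.69 to 1.43 and from -0.55 to 1.20. The E1 enzyme Uba1 rose in the gastrocnemius (0.99, adjusted p = 0.013), and Ubb, which encodes polyubiquitin, had changes of -0.42 in the gastrocnemius and 0.00 in the triceps.

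Of the 6 genes of the NRF1 branch, 5 rose in the gastrocnemius after T3 and 3 in the triceps, against 27.1% and 19% of all genes. After centring, 3 rose in the gastrocnemius and 2 in the triceps. Nfe2l1 itself had 0.43 in the gastrocnemius (adjusted p = 0.056) and rose in the triceps (0.92, adjusted p = 0.016). Ngly1, which strips sugars from NRF1, rose in both (0.72, adjusted p = 0.0014, and 0.57, adjusted p = 0.0012), and Mafk, a partner of NRF1 on DNA, rose by 1.23 (adjusted p = 0.00035) and 1.57 (adjusted p = 0.00074). Nfe2l2, which encodes the related factor NRF2, rose in the gastrocnemius (0.94, adjusted p = 0.0010) and had a change of 0.52 (adjusted p = 0.063) in the triceps.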

How the data were processed

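RNA of 30 muscle libraries was read as strand-specific polyA libraries in pairs, per the labels' protocols. The deposited table holds log2 values made by the authors, who used HISAT2 2.1.0, GRCm38, featureCounts, Subread 1.5.1 and limma, per the submitters' processing notes. Each value is the log2 of CPM after 0.5 reads were added: converting back gave whole reads for 100% of values, within 0.01 reads. The annotation release that the authors used is not stated.

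The values were fitted with limma 3.58.1 (R 4.3.3; eBayes with trend, two-sided tests; Benjamini-Hochberg over all genes; threshold 0.05). Genes needed a log2 CPM of 0 or more in 4 or more libraries, which kept 11248 in the gastrocnemius and 11249 in the triceps. A test of counts had been foreseen had the table held counts. The 12 gastrocnemius libraries were fitted together, and the 18 triceps libraries were fitted with the number 57 or 60 as a covariate. Muscles were compared through within-mouse differences, the mouse being read from the descriptions. Libraries so paired deviated together in 11 of 12 mice. Some libraries of different mice did so too (r = 0.837 for triceps sham and T9 replicate 6), so these correlations cannot show which libraries share a mouse. Same replicate numbers within a muscle name different mice.

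The subunits and lists were chosen with earlier results of these data known, and so were the rules for naming. Values by library are given for the 3 genes each of core and cap with the largest change after T3 in the gastrocnemius, the smallest of each, and the 3 proteolytic subunits. Results for some genes these rules allow are not reported here. Psma5 and members that did not pass were named after their values were seen. Symbols, positions and lengths came from GENCODE M21 (GRCm38). The fit was tested on simulated data whose noise was independent between genes and between libraries. Those data hold no shift of a whole library's median, so that test does not cover such shifts. Reads are not independent molecules. Alternatives were quantile normalization, median centring, other filters, a pseudocount of 1 CPM, voom on recovered reads, other libraries in the fit, a replicate block, no mouse block and leaving out each library; added after seeing the data were length and GC correction, the library median as a covariate, and dropping the 4 libraries of lowest median.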

Additional observations from a re-analysis of the deposited data

Results flagged for a closer look

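In the 84 sets of values of one group that were examined, 5 libraries stood far from the others of their group, and about 1 in 20 sets would by chance. These were Psma3 in gastrocnemius T9 replicate 3 (161 CPM, low), Psmd2 in triceps T9 replicate 1 (229 CPM, low), Psmd4 in triceps sham replicate 3 (248 CPM, high), Psmd5 in triceps sham replicate 2 (16.7 CPM, high) and Psmb5 in gastrocnemius T3 replicate 2 (276 CPM, high). Triceps sham replicate 3 and triceps T9 replicate 1 are among the 4 libraries with the lowest median.

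The change after T9 injury differed between gastrocnemius and triceps, by the test of the within-mouse difference, for 12 of the 32 subunits. Of all genes, 3.76% were called so. Of these 12 subunits, 1 (Psma5) was called under every alternative. The count fell to 4 after centring and to 3 without the mice of the 4 libraries with the lowest median. Among those shown by library, Psmd4 changed by 1.09 more in the gastrocnemius on the log2 scale and Psmc4 by 0.71 more.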

How the results depend on the processing

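The counts of subunits called after T3 against sham in the gastrocnemius (29) stayed within 1.5 times under all alternatives run, at 23 to 31 when each library was left out in turn. In the triceps they were 25 to 28 against sham (27) and 20 to 25 against T9 (24), with 15 against sham after centring on the library median. After T9 in the triceps 0 were called under every alternative. After T9 in the gastrocnemius (22) the count was 14 with quantile normalization, 6 after centring, and 17 to 29 with 1 library left out.

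For T3 against T9 in the gastrocnemius (2) it was 13 with only these groups fitted, 0 with a replicate block, 4 after length and GC correction, 5 without the libraries of lowest median, and 0 to 2 with 1 library left out. With the replicate block the other counts within muscles stayed within 1.5 times. For the extra T9 change in the gastrocnemius (12) it was 4 after centring, 6 without the mouse block, 21 after length and GC correction, 3 without the mice of the 4 libraries with the lowest median, and 6 to 15 with 1 mouse left out. Between muscles of sham mice (11) it was 0 without the mouse block or those mice, and 0 to 16 with 1 mouse left out. Of these 11 genes, 3 changed sign under an alternative. No called subunit changed sign in the other comparisons.

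The difference between cap and core changed by -0.09 from T9 to T3 in the gastrocnemius, and by 0.0011 with medians over genes. The cause of these changes was not tested. With 4 to 6 libraries per group, changes of the size of the sham spread of the core, 0.41 to 0.49, could be missed.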

Other observations

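Fitted in each muscle apart, the 32 subunits' changes after T3 were larger in the gastrocnemius than in the triceps for 30 genes. Neither this count nor the r below was computed over all genes. The test of the within-mouse difference called 0 of the 32, against 0.142% of all genes called higher. Its median was 0.31, against -0.02 for all genes. Across the 32 genes the changes in both muscles had r = 0.95, with Psmd2 highest (1.85 and 1.62), and Psma3 (0.37 and 0.15), Psmb6 (0.45 and 0.25) and Psmd5 (0.35 and 0.31) at the low end. Genes are not independent replicates, and 4 mice per group gave both muscles.

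Schwann cell markers (4 of 6 in the table, without S100b and Sox10) summed to 50.3 to 198 CPM in gastrocnemius sham, 60.81 to 115 CPM after T3 and 116 to 162 CPM after T9.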
